A study of Mus musculus with 9 samples.

Results

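The genes described here are 10 members of the amino acid response driven by the transcription factor ATF4, chosen by name: the regulators *Atf4*, *Ddit3* and *Trib3*, the enzymes *Chac1*, *Asns*, *Psat1* and *Phgdh*, and the transporter subunits *Slc7a5*, *Slc7a11* and *Slc3a2*. They were found in the count file by Ensembl ID, where the 10 symbols match 11 of the 54232 genes listed. A second ID named *Ddit3* (ENSMUSG00000116429) holds 0 counts in every library, which leaves 1 measured gene per symbol. The rule that picks them uses no measured value, but it was set with earlier results of these data known. Shares of all genes given beside the counts of members are therefore descriptions and not tests.

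ATF4 is a basic leucine zipper factor of the integrated stress response. Kinases that sense uncharged tRNA, unfolded protein, double-stranded RNA or lack of heme phosphorylate the initiation factor eIF2α, which lowers general translation but lets more *Atf4* mRNA be translated, so that the mRNA level is only one layer of control. ATF4 then binds, often with C/EBP proteins, to promoter elements of genes that import, make and charge amino acids. Its targets are transcribed at a baseline in growing cells and further induced when amino acids run short or the endoplasmic reticulum is stressed.

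Expression was measured by sequencing poly(A) RNA from 9 libraries. Naïve mouse embryonic stem cells (mESCs) of a C57 x CBA background were grown in serum and LIF (S/L medium) on feeders, and primed cells (mEpiSCs), which were derived from the naïve cells in vitro, were grown with Fgf2 and Activin A (F/A medium) on feeders. Each state was sampled at passage 5 (P5) and passage 15 (P15) with 2 libraries, and 1 library was made from mouse embryonic fibroblasts (MEFs), the cell type that serves as feeder layer when mitomycin-treated. The study has 1 line of this background, OG2, which carries GFP under the distal promoter of *Oct4*, and no other background was sequenced here. All naïve libraries came from S/L medium and all primed libraries from F/A medium, so that state and medium cannot be told apart. The study calls the 2 libraries of a group biological repeats without saying whether they were separate conversions or cultures, and the p-values refer to the spread between these libraries.

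Library totals ran from 14378051 to 20985136 counts among naïve and primed cells, and MEFs had 25646547. Values are CPM, counts per 1000000 counts of a library size in which TMM has corrected for composition across the 9 libraries, and each SD comes from 2 libraries. Differences are log2 fold changes fitted by edgeR, positive where primed cells or P15 were higher. P-values are from its quasi-likelihood test, adjusted by Benjamini-Hochberg over all genes tested, and called genes are those with adjusted p below 0.01. The labelled states were read against markers. The summed level of 8 naïve markers was 2111 to 2550 CPM in naïve and 112 to 241 CPM in primed libraries, while 6 primed markers reached 1044 to 1060 CPM in primed and 340 to 352 CPM in naïve libraries. RNA of fibroblast markers was present in every culture, and whether all of it came from feeders was not tested. A sum of 15 fibroblast markers was 7934 to 8014 CPM in naïve and 4412 to 4533 CPM in primed libraries at P5, 13640 to 14350 CPM and 11470 to 11970 CPM at P15, and 71490 CPM in MEFs, with no marker at 3 counts or fewer. In bulk RNA, fewer cells that express a gene cannot be told apart from less RNA of it per cell.

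Of the members, 9 have a promoter window in the RefSeq table for GRCm38.p6, which spans 250 bases before to 50 bases from the transcription start. The C/EBP-ATF response element, searched as TGATGNAA on both strands, was found in 4 of them, *Slc7a11*, *Asns*, *Chac1* and *Trib3*. *Psat1* has 2 windows, so that these are 4 of 10 member windows (40%), against 3.97% of all 32851 windows. *Slc7a11* held 2 matches on opposite strands, and 2 or more were held by 0.0700% of all windows. A match is a description of the letters and not a measured binding site. The stretches around the matches are shown for these members because they include the gene that moved against the others; capitals mark the match, and each is read 5′ to 3′ on the strand of the gene.
*Slc7a11* (chr3:50443627-50443706, minus strand, first bases of the matches at −66 and −47): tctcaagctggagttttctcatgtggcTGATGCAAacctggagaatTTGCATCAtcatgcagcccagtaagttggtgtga
*Asns* (chr6:7693210-7693289, minus strand, −23): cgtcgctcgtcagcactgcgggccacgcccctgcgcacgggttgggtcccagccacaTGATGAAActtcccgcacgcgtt
*Chac1* (chr2:119351013-119351092, plus strand, −193): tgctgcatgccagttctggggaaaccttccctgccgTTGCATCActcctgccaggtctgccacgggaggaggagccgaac
*Trib3* (chr2:152344028-152344057, minus strand, +15): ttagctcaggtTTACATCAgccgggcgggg

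The first question the design poses is how the members differed between the states at P5. All 10 members were called, 9 lower and 1 higher in primed cells, where 62.3% of the 16482 genes tested were called (31.1% lower and 31.2% higher). With a fold change of at least 2 as well, 6 members were lower and 1 higher, against 8.85% and 13.5% of the genes tested (22.3% in either direction). The median log2 fold change of the members was −1.30 and that of all genes 0.0078. At P15 the 10 members were called with the same split, where 56.6% of 15733 genes were called (28.4% lower and 28.2% higher), and their median was −0.96 against −0.0039 for all genes. With the fold threshold 5 members were lower and 1 higher at P15, against 11% and 12.2% of the genes tested (23.2% in either direction). At each passage both primed libraries lay below both naïve libraries for 9 members and above them for *Slc7a11*. The share of all genes separated in this way was not computed, so that this count does not set the members apart.

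**Figure D1:**
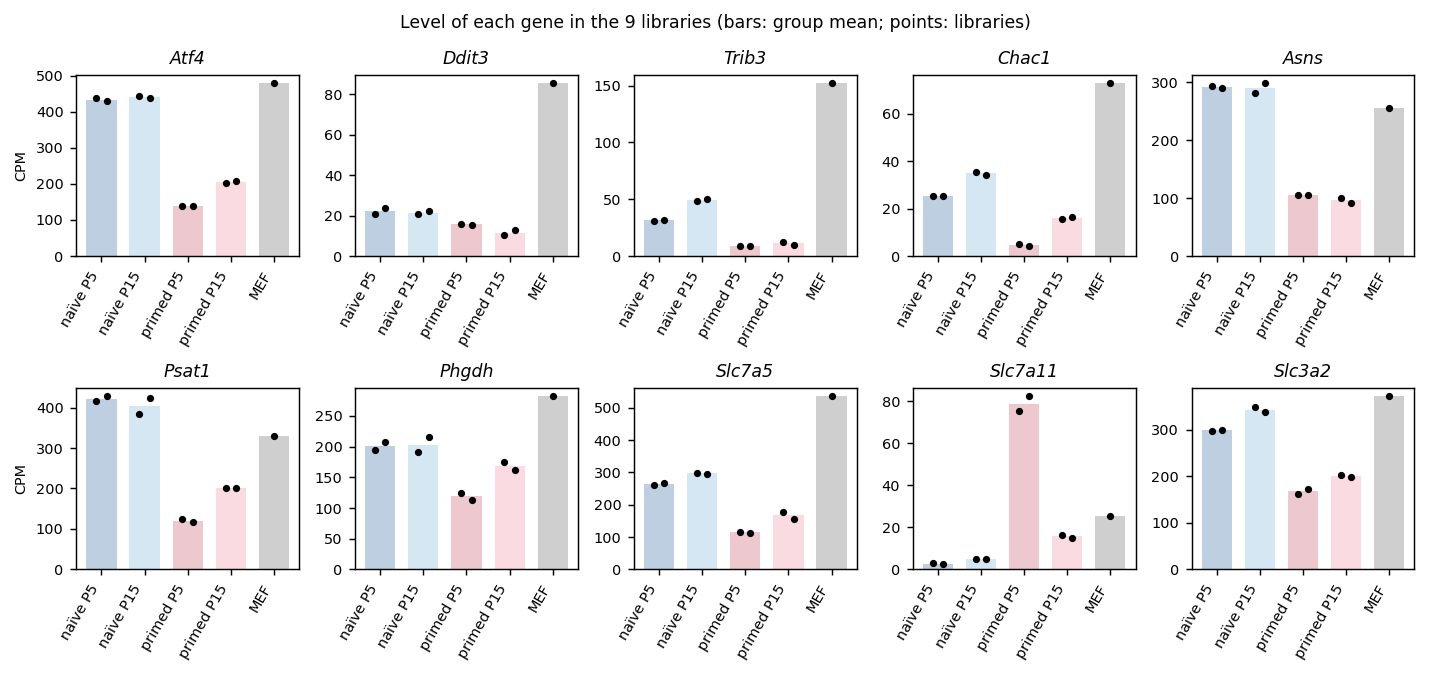
Level of each member in every library (vertical axis, CPM from 0, scaled separately per gene) by group (horizontal axis), with points for libraries and bars for the group mean; MEF is 1 library. *Slc7a11* is high in primed cells at P5, at 75.4 and 82.4 CPM, whereas *Atf4* and the other members are lower in primed than in naïve cells at both passages.

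*Atf4* itself (ENSMUSG00000042406, GRCm38 chromosome 15, 80255184 to 80257541, plus strand) was at 437.9 and 429.4 CPM in naïve and 137.6 and 139.5 CPM in primed libraries at P5. At P15 it was at 444.1 and 438.0 CPM in naïve and 203.4 and 207.1 CPM in primed libraries, and MEFs had 479.0 CPM. The naïve libraries of both passages were close together and the primed libraries were apart from them and from each other by passage. Primed cells held 31.9% of the naïve level at P5 and 46.5% at P15, log2 fold changes of −1.61 (SE 0.0369, adjusted p = 2.41e-25) and −1.11 (SE 0.0568, adjusted p = 3.12e-19). Per kilobase of exon, which allows levels of genes to be compared, *Atf4* was the highest of the members in naïve cells at P5, at 183.9 CPM per kb.

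*Ddit3* (ENSMUSG00000025408, chromosome 10, 127290774 to 127296288, plus strand) encodes CHOP, a C/EBP family factor of sustained stress. It was at 20.7 and 23.6 CPM in naïve and 15.9 and 15.4 CPM in primed libraries at P5. At P15 the naïve libraries had 20.6 and 22.4 CPM and the primed libraries 10.2 and 12.9 CPM, with 85.4 CPM in MEFs. The naïve and primed libraries did not overlap at either passage, but the gap at P5 was small beside that of *Atf4*. The naïve libraries of the 2 passages overlapped. The log2 fold changes were −0.47 at P5 (SE 0.0986, adjusted p = 0.000119) and −0.91 at the later passage (SE 0.130, adjusted p = 1.51e-07). The P5 call was lost with library size alone (−0.27, adjusted p = 0.0208) and after a feeder share was taken off by *Col1a1* (−0.27, adjusted p = 0.0497). Exons of *Ddit3* overlap *Mars* and *Gm4189* on the opposite strand, and the strand setting of the counting is not given in the sources used here, so that its counts are uncertain.

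*Trib3* (ENSMUSG00000032715, chromosome 2, 152337422 to 152344032, minus strand) encodes a pseudokinase that is induced by ATF4 and CHOP and restrains them in turn. Its levels at P5 were 30.6 and 32.1 CPM in naïve and 8.85 and 8.60 CPM in primed libraries. At P15 they were 48.1 and 49.8 CPM in naïve and 12.6 and 9.77 CPM in primed libraries, and 152.1 CPM in MEFs. The states were far apart at both passages, with primed cells at 27.8% and 22.8% of the naïve level. The log2 fold changes were −1.81 (SE 0.0996, adjusted p = 5.34e-16) and −2.14 (SE 0.109, adjusted p = 3e-19).

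Among the enzymes, *Chac1* (ENSMUSG00000027313, chromosome 2, 119351229 to 119354381, plus strand) encodes a γ-glutamyl cyclotransferase that degrades glutathione. It was at 25.5 and 25.4 CPM in naïve and 4.92 and 4.16 CPM in primed libraries at P5. The P15 values were 35.5 and 34.1 CPM in naïve and 15.5 and 16.4 CPM in primed libraries, with 72.9 CPM in MEFs. Primed cells thus had 17.8% of the naïve level at P5, the lowest share of any member there, and 45.8% at P15. The log2 fold changes were −2.45 (SE 0.123, adjusted p = 6.14e-17) and −1.14 (SE 0.104, adjusted p = 5.73e-12).

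*Asns* (ENSMUSG00000029752, chromosome 6, 7675169 to 7693254, minus strand) encodes asparagine synthetase. Its P5 levels were 293.2 and 289.7 CPM in naïve and 106.1 and 106.2 CPM in primed libraries. Its P15 levels were 281.7 and 298.5 CPM in naïve and 100.9 and 92.4 CPM in primed libraries, and MEFs had 255.6 CPM. Both states kept their order and nearly their levels across passages, and the naïve libraries of the passages overlapped. Primed cells were at 36.4% and 33.3% of the naïve level, log2 fold changes of −1.42 (SE 0.0389, adjusted p = 1.97e-23) and −1.60 (SE 0.0634, adjusted p = 1.38e-22).

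*Phgdh* and *Psat1* encode consecutive enzymes of serine synthesis from a glycolytic intermediate. *Psat1* (ENSMUSG00000024640, chromosome 19, 15904678 to 15947337, minus strand) was at 415.3 and 427.6 CPM in naïve and 124.5 and 116.8 CPM in primed libraries at P5. At P15 it was at 384.8 and 424.5 CPM in naïve and 201.1 and 200.7 CPM in primed libraries, with 330.7 CPM in MEFs. Primed cells were below naïve cells without overlap, at 28.6% and 49.6% of their level, with log2 fold changes of −1.77 (SE 0.0394, adjusted p = 1.21e-25) and −1.02 (SE 0.0591, adjusted p = 1.41e-17). *Phgdh* (ENSMUSG00000053398, chromosome 3, 98313170 to 98339990, minus strand) was at 195.3 and 208.4 CPM in naïve and 124.1 and 113.6 CPM in primed libraries at P5. The P15 values were 190.7 and 215.3 CPM in naïve and 175.0 and 162.7 CPM in primed libraries, with 281.8 CPM in MEFs. The gap between the states was the smallest of the members at P15, where the lower naïve library was close to the higher primed library. The log2 fold changes were −0.73 (SE 0.0450, adjusted p = 7.73e-15) and −0.28 (SE 0.0638, adjusted p = 0.000261). The P15 call was lost with library size alone (−0.17, adjusted p = 0.0213), without naïve P15 replicate 2 (−0.21, adjusted p = 0.0152) and without primed P15 replicate 2 (−0.20, adjusted p = 0.0187). Leaving out 1 of 2 libraries leaves a group with 1, which is then assumed to vary like the groups that keep 2, here and wherever a library is left out.

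The transporter members share a partner. *Slc3a2* encodes the CD98 heavy chain, which pairs with the light chain LAT1, the product of *Slc7a5* and an importer of large neutral amino acids, or with xCT, the product of *Slc7a11* and an exchanger of cystine for glutamate. *Slc3a2* (ENSMUSG00000010095, chromosome 19, 8706882 to 8723369, minus strand) was at 296.7 and 300.5 CPM in naïve and 162.8 and 172.7 CPM in primed libraries at P5. At P15 it was at 348.8 and 337.9 CPM in naïve and 203.6 and 199.3 CPM in primed libraries, with 371.5 CPM in MEFs. Primed cells held 56.2% and 58.7% of the naïve level, log2 fold changes of −0.80 (SE 0.0381, adjusted p = 1.8e-17) and −0.78 (SE 0.0576, adjusted p = 1.63e-14). *Slc7a5* (ENSMUSG00000040010, chromosome 8, 121881150 to 121907694, minus strand) was at 262.5 and 266.8 CPM in naïve and 115.6 and 112.8 CPM in primed libraries at P5. Later it was at 299.2 and 296.0 CPM in naïve and 178.2 and 156.8 CPM in primed libraries, at P15, with 534.9 CPM in MEFs. This light chain was lower in primed cells at both passages, with log2 fold changes of −1.18 (SE 0.0392, adjusted p = 2.85e-21) and −0.84 (SE 0.0622, adjusted p = 1.74e-14).

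*Slc7a11* (ENSMUSG00000027737, chromosome 3, 49892526 to 50443614, minus strand) went the other way. It was at 2.88 and 2.52 CPM in naïve libraries at P5, or 58 and 51 counts, and at 75.4 and 82.4 CPM in primed libraries. At P15 it was at 4.79 and 5.05 CPM in naïve libraries, or 65 and 79 counts, and at 16.5 and 15 CPM in primed libraries, with 25.3 CPM in MEFs. The primed P5 libraries were above all others, MEFs included, and the naïve libraries of both passages were the lowest. The log2 fold change was 4.89 at P5 (SE 0.101, adjusted p = 2.07e-26), a 29.8-fold difference, and 1.66 at P15 (SE 0.162, adjusted p = 2.62e-11), a 3.17-fold difference. Per kilobase of exon it was still below its partners in primed cells at P5, at 5.67 CPM per kb against 30.8 for *Slc7a5* and 47.5 for *Slc3a2*, on an annotated exon length of 13922 bases that isoforms in use may not span.

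**Figure D2:**
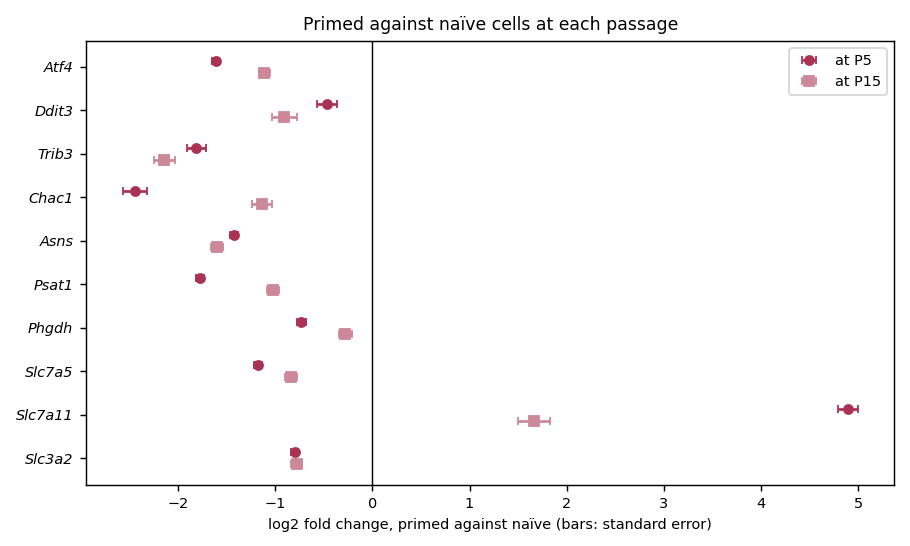
Log2 fold change of each member from edgeR (horizontal axis, bars are 1 SE on each side) in primed against naïve cells at P5 (circles) and at P15 (squares), with genes on the vertical axis. 9 members lie left of 0 in primed against naïve cells at both passages, and *Slc7a11* lies at 4.89 and 1.66.

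Whether the difference between the states changed with passage was tested as an interaction of state and passage across 8 libraries. The effect differed for 6 members, where 24.1% of 16926 genes were called (13.3% higher and 10.8% lower). It moved up, which here means a smaller deficit in primed cells at P15, by 1.33 on the log2 scale for *Chac1* (SE 0.161, adjusted p = 8.2e-08), 0.77 for *Psat1* (SE 0.0699, adjusted p = 2.39e-10), 0.52 for *Atf4* (SE 0.0620, adjusted p = 6.47e-08), 0.47 for *Phgdh* (SE 0.0816, adjusted p = 2.99e-05) and 0.36 for *Slc7a5* (SE 0.0729, adjusted p = 0.000253). It moved down by −3.22 for *Slc7a11* (SE 0.209, adjusted p = 8.89e-14), so that its excess in primed cells was smaller at P15. The call of *Slc7a5* was lost without primed P5 replicate 2 (0.31, adjusted p = 0.0105) and by either way of taking off a feeder share, to 0.24 (adjusted p = 0.0427) by *Col1a1* and −0.01 (adjusted p = 0.966) by the median of markers. The median share also ended the call of *Chac1*, whose primed P5 libraries it left at 3 counts or fewer, and left the naïve P5 libraries of *Slc7a11* there as well, so that neither has a usable value under it. It added *Asns* (−0.71, adjusted p = 3.74e-05) and *Ddit3*, at 3 counts or fewer in primed cells at P15, as calls in the lower direction. With the *Col1a1* share, *Chac1* (1.57, adjusted p = 3.53e-05) and *Slc7a11* (−2.78, adjusted p = 0.000149) kept their calls, and *Asns* was called at −0.39 (adjusted p = 0.00113). *Trib3* was called lower there too, with primed P15 libraries at 3 counts or fewer. *Ddit3* at −0.42 (adjusted p = 0.0455), *Trib3* at −0.31 (adjusted p = 0.117), *Asns* at −0.16 (adjusted p = 0.0939) and *Slc3a2* at 0.037 (SE 0.0650, adjusted p = 0.71) did not pass the threshold, which does not show that their effects were equal at both passages.

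Within the primed state, 8 members were called between P15 and P5, 6 higher and 2 lower, where 47.1% of 15957 genes were called (24.3% higher and 22.8% lower). *Chac1* rose 3.42-fold (log2 1.77, SE 0.143, adjusted p = 4.1e-11) and *Psat1* 1.63-fold (adjusted p = 9.26e-12). *Atf4* rose 1.45-fold (adjusted p = 1.03e-09), *Slc7a5* 1.44-fold (adjusted p = 2.5e-08), *Phgdh* 1.39-fold (adjusted p = 6.66e-08) and *Slc3a2* 1.18-fold (adjusted p = 0.000389). *Slc7a11* fell 5.12-fold (log2 −2.36, SE 0.0819, adjusted p = 5.27e-19), and *Ddit3* was called lower at −0.47 (adjusted p = 0.00168). The *Ddit3* call was lost in DESeq2's Wald test (adjusted p = 0.0214) and without primed P15 replicate 1 (−0.31, adjusted p = 0.0423). That of *Slc3a2* was lost with library size alone (0.10, adjusted p = 0.0905) and without primed P5 replicate 1 (0.17, adjusted p = 0.0701). After a feeder share by the median of markers was taken off, *Chac1* and *Trib3* fell under the low-count filter and were not tested, so that the rise of *Chac1* has no value there. Of the other 8 members, *Atf4*, *Psat1* and *Phgdh* were called higher and *Slc7a11*, *Asns* and *Ddit3* lower, the last with the P15 libraries at 3 counts or fewer. *Slc7a5* (0.17, adjusted p = 0.129) and *Slc3a2* (0.11, adjusted p = 0.173) lost their calls, and *Asns* was at −0.72 (adjusted p = 2.17e-05). With the share by *Col1a1*, *Chac1* was still called (1.92, adjusted p = 6.97e-07), *Asns* was called lower at −0.38 (adjusted p = 8.03e-05) and *Slc3a2* was not called (0.16, adjusted p = 0.0217). *Trib3* was called lower there too, with its P15 libraries at 3 counts or fewer. With no feeder share taken off, *Trib3* at 0.32 (adjusted p = 0.0531) and *Asns* at −0.17 (adjusted p = 0.0164) were not called. A sum of 4 pluripotency markers also differed between the passages of primed cells, at 622 to 624 CPM at P5 and 1162 to 1171 CPM at P15. Of these markers, 2 were called higher and 1 lower at P15. The sum was 1674 to 1811 CPM in naïve libraries, and its part in these results was not tested.

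Within the naïve state 3 members were called, all higher at P15, where 9.22% of 15683 genes were called (4.21% higher and 5.01% lower). They were *Trib3* at 0.64 (adjusted p = 4.17e-05), *Chac1* at 0.45 (adjusted p = 0.00181) and *Slc3a2* at 0.20 (adjusted p = 0.00471). *Slc7a11* at 0.86 (adjusted p = 0.0153) and *Slc7a5* at 0.17 (adjusted p = 0.0122) missed the threshold, and *Atf4* was at 0.03 (adjusted p = 0.713). Of the 3 calls, only that of *Trib3* was made without a low-count filter. After a feeder share by *Col1a1* was taken off, *Trib3* (0.47, adjusted p = 0.012) and *Chac1* (0.37, adjusted p = 0.0316) were not called, and *Ddit3* was called lower at P15 (−0.90, adjusted p = 0.00645). Without naïve P5 replicate 1, naïve P5 replicate 2 or naïve P15 replicate 1 in turn, the call of *Slc3a2* was lost (adjusted p = 0.0552, 0.0326 and 0.0116).

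The MEF library, of the cell type used as feeders, held more of 7 members than any naïve or primed library did. It is 1 library, and the share of all genes for which this holds was not computed. Single fibroblast markers gave different shares and directions. Of the 15, 11 were lower and 2 higher in primed cells at P5, and 6 were lower and 6 higher at P15. *Dcn* was higher in primed cells at 3.56 and 5.23 on the log2 scale and *Lum* at 2.91 and 5.01, and the ratio to the MEF level in primed libraries ran from 2.51% (*Acta2*) to 354% (*Dcn*). The feeder share of a library is therefore uncertain, and 2 values are used here. *Col1a1* was at 8.01% to 8.10% of its MEF level in naïve and 2.88% to 2.97% in primed libraries at P5, and at 16.4% to 16.8% and 9.69% to 10.6% at P15. At the *Col1a1* share, RNA of the MEF library's composition would make up 8.90% of the *Atf4* level in naïve and 10.1% in primed cells at P5, and 18% and 23.7% at P15. At the median of the 15 markers, which was 11.2% to 22.7% by library, these would be 17.2%, 39.6%, 19.9% and 49.7%. For *Trib3* the *Col1a1* share would make up 39.1% and 51.0% at P5, 51.5% in naïve cells at P15, and 140% of the level seen in primed cells at P15, which is more than was measured; at the median share the primed values would be 200% at P5 and 292% at P15. For *Slc7a11* it would be 75.8% of the naïve and 0.940% of the primed level at P5 by *Col1a1*, and 146% and 3.69% by the median. At P15 the *Slc7a11* values would be 85.3% and 16.3% by *Col1a1*, and 94.0% and 34.2% by the median. The part of feeder RNA in the naïve level of *Slc7a11*, and so in its fold, was not tested. With the *Col1a1* share of MEF counts taken off each library, 9 members at P5 and 10 at P15 were still called in the same directions. The exception was *Ddit3* at P5. This share left *Trib3* in primed cells at P15 at no more than 3 counts, so that its call there gives no usable fold. After the larger share by the median, 10 were called at each passage. This larger share left *Trib3* and *Chac1* in primed and *Slc7a11* in naïve cells at P5, and *Ddit3* and *Trib3* in primed cells at P15, at no more than 3 counts, and the calls of these give no usable fold.

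**Figure D3:**
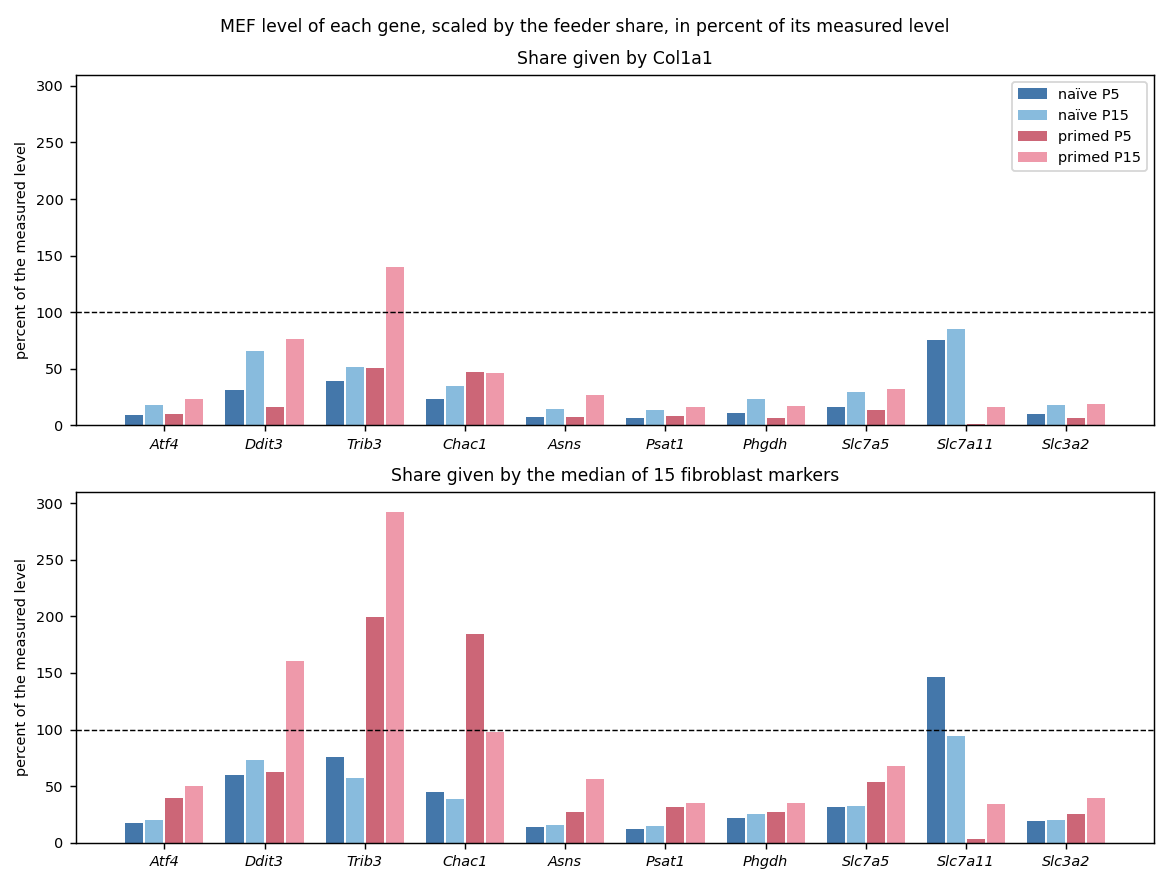
Percent of each member's level that RNA of the MEF library's composition would make up (vertical axis, bars from 0, dashed line at 100%), by gene (horizontal axis) and group (colour), at the share given by *Col1a1* (top) and by the median of 15 markers (bottom). *Slc7a11* in naïve cells at P5 stands at 75.8% in the top and 146% in the bottom panel, and *Trib3* in primed cells at P15 at 140% and 292%.

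Other genes of the pathway were taken from lists of known members. Their counts stand beside those of all genes tested, of which 31.1% were lower and 31.2% higher in primed cells at P5. At P15 these shares were 28.4% and 28.2%, and between the passages of primed cells 22.8% were lower and 24.3% higher at P15. Of 14 genes around eIF2 (its α subunit, the kinases, regulators of GCN2, the phosphatase subunits and the exchange factor eIF2B), 9 were lower and 1 higher in primed cells at P5, and the same counts were found at P15 (medians −0.67 and −0.27). With library size alone the P15 counts were 5 lower and 3 higher. Between the passages of primed cells 11 of the 14 rose, and 6 rose and 1 fell with library size alone. The largest change at P5 was in *Ppp1r15a*, the ATF4-induced phosphatase subunit GADD34 that removes the phosphate from eIF2α. It was at 168.3 ± 7.12 CPM in naïve and 34.1 ± 2.51 CPM in primed cells at P5 (SD, n = 2 each) and at 144.7 ± 6.68 and 48.4 ± 2.96 CPM (SD, n = 2 each) at P15, log2 fold changes of −2.27 and −1.59. MEFs had 46.0 CPM of it. Of the eIF2α kinases, *Eif2ak1* (HRI) was lower at −0.44 and −0.34, and *Eif2ak2* (PKR) was higher at 0.43 and 1.46. The amino acid sensor *Eif2ak4* (GCN2) had −0.03 (adjusted p = 0.701) and 0.03 (adjusted p = 0.843), and the unfolded protein sensor *Eif2ak3* (PERK) 0.02 (adjusted p = 0.879) and −0.19 (adjusted p = 0.0967), none past the threshold. The subunits *Eif2b1* and *Eif2b3* of the exchange factor that eIF2α phosphorylation inhibits were lower at P5, at −0.88 and −0.80, and *Eif2b5* at P15, at −0.52.

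Of 9 partner or related factors, 3 were higher and 3 lower at P5, and 2 and 2 at P15. *Atf3*, a stress-induced repressor, was at 141.0 ± 4.80 CPM in naïve and 9.996 ± 0.924 CPM in primed cells at P5 and at 80.03 ± 0.0582 and 8.25 ± 0.870 CPM at P15 (SD, n = 2 each), log2 fold changes of −3.79 and −3.29. *Atf5* was lower at −1.31 and −1.01. *Cebpb*, which encodes a dimer partner of ATF4, was higher at 0.57 and 0.99, and *Cebpd* at 1.22 and 1.69. *Cebpg*, another partner, had 0.16 (adjusted p = 0.0261) and −0.02 (adjusted p = 0.852). *Nupr1*, a stress-induced chromatin protein, was lower at P5 (−0.64) and at −0.18 (adjusted p = 0.0819) at P15. The median of this list at P5 turned from −0.08 to 0.12 with library size alone. After a feeder share was taken off it was 0.32 over the 6 genes still tested (median share) and 0.26 over 8 (*Col1a1* share), where the same genes had medians of 0.20 and 0.04 before.

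Of 18 other metabolic and stress targets tested, 16 were lower and 2 higher in primed cells at P5, and 13 and 2 at P15 (medians −1.04 and −0.75). *Psph*, the last enzyme of serine synthesis, was lower at −1.61 and −1.10. *Shmt2* and *Mthfd2*, of mitochondrial one-carbon metabolism, were lower at −1.06 and −1.66 at P5 and at −0.28 and −1.29 at P15. *Cth*, which makes cysteine from cystathionine, was lower at −1.75 and −0.89, and *Sesn2*, a leucine sensor that restrains mTORC1, at −1.50 and −0.93. At P15 the 3 largest changes of the list were in *Aldh1l2* at −2.79, *Gpt2* at −1.52 and *Mthfd2*. The 2 higher at P5 were *Vldlr* (1.07) and *Gdf15* (0.79), and the 2 higher at P15 were *Vldlr* (0.79) and *Stc2* (0.29). *Gdf15* was lower at P15 (−0.63) and *Stc2* was lower at P5 (−0.63). These 3 genes were named after their values were seen.

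Other amino acid transporters were split, with 4 higher and 4 lower of 10 tested at P5 (6 and 4 with library size alone) and 2 and 4 at P15. *Slc7a1*, a carrier of arginine and lysine, was lower at −1.35 and −1.51 and *Slc38a2*, a carrier of small neutral amino acids, at −1.04 and −0.75. *Slc1a4*, a carrier of alanine, serine and cysteine, had 0.02 (adjusted p = 0.813) at P5 and was higher at 0.36 at P15. *Slc36a4* was higher at P5 (1.03) and *Slc7a6*, another light chain partner of *Slc3a2*, at P15 (0.80).

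The aminoacyl-tRNA synthetases, which charge tRNA with amino acids, were lower in primed cells. Of 12 known as ATF4 targets, 12 were lower at P5 and 11 at P15 (medians −0.79 and −0.45). Of 8 that are not in that list, 8 were lower at P5 and 6 at P15 (medians −0.65 and −0.31). *Aars* and *Lars* were at −1.14 and −1.10 at P5 and both at −0.82 at P15, *Tars* was at −1.07 at P5 and *Nars* at −0.70 at P15. Of the others, *Farsb* was at −0.86 and −0.61, *Dars* at −0.75 and −0.37 and *Rars* at −0.67 and −0.36. Between the passages of primed cells, 12 of the 12 and 7 of the 8 rose, and 10 and 5 with library size alone. Between the states none in either list was called higher at either passage with DESeq2's size factors or with library size alone, and the fewest called lower were 9 of 12 and 4 of 8, at P15 with library size alone.

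**Figure D4:**
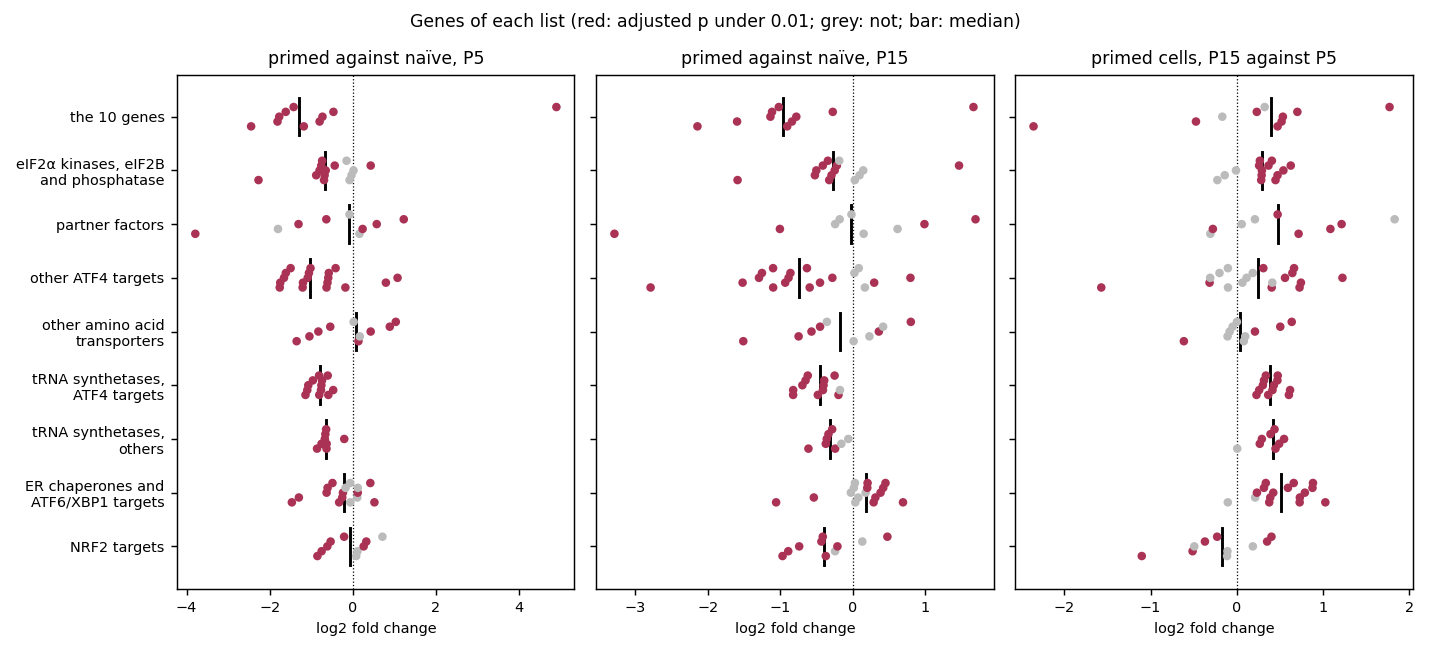
Log2 fold change of single genes (horizontal axis, points, red where adjusted p was under 0.01 and grey otherwise; each panel has its own scale) by list (vertical axis) for primed against naïve cells at P5 and P15 and for P15 against P5 in primed cells, with the list median as a bar. The ATF4-target tRNA synthetases lie at a median of −0.79 at P5 and −0.45 at P15, and the other list of synthetases at −0.65 and −0.31.

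A pair of lists stood for neighbouring stress pathways. Of 16 genes of the unfolded protein response and protein folding in the endoplasmic reticulum, 8 were lower and 3 higher in primed cells at P5, and 2 lower and 8 higher at P15 (medians −0.21 and 0.19). With library size alone the P5 counts were 5 lower and 7 higher. Between the passages of primed cells 14 of the 16 rose, or 13 with library size alone, where 1 fell. The chaperone *Hspa5* (BiP) was at −0.61 at P5 (adjusted p = 2.87e-16) and 0.01 at the later passage (adjusted p = 0.838), a difference of 0.64 between the passages (adjusted p = 9.75e-11). *Dnajb9* and *Herpud1* were lower at both passages, at −1.47 and −1.30 at P5 and −1.06 and −0.54 at P15, *Calr* was lower at P5 (−0.63) and *Dnajc3* higher at P15 (0.69). Of 10 targets of NRF2, a factor of the oxidative stress response that also regulates *Slc7a11*, 5 were lower and 2 higher at P5 and 7 and 1 at P15 (medians −0.07 and −0.39). With library size alone the P5 median was 0.14, with 4 lower and 5 higher. *Gclm*, a subunit of the enzyme that starts glutathione synthesis, was lower at −0.85 and −0.97 and *Txnrd1* at −0.61 and −0.74. *Gsr* was lower at P5 (−0.75), and *Nqo1* was higher at P5 (0.32) and lower at P15 (−0.89).

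Genes outside the members and lists whose pattern was most like that of *Atf4* or *Asns* were sought over the 8 naïve and primed libraries. The measure was the root mean square difference of log2(CPM + 1) after each gene was centred, over 10001 genes. Members and listed genes were not ranked, so that the genes named need not be the nearest of all. For *Atf4* they were *Etv5* (0.0807), *Tle4* (0.107) and *mt-Rnr2* (0.114). For *Asns* they were *Msh6* (0.0508), *Mcl1* (0.0660) and *Ydjc* (0.0664).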

How the data were processed

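The authors sequenced poly(A) RNA, trimmed reads with Cutadapt, aligned them to mm10 with HISAT2 (several alignments per read reported, option -k) and ran featureCounts on Ensembl genes, and the deposited values are raw counts. The tool versions, annotation release, strand setting and how featureCounts treated reads with several alignments are not given in the sources used here. DESeq2 is also listed in the submitters' processing notes. Names and coordinates came from GENCODE M21 (GRCm38), which named 54165 of the 54232 IDs. Spike-in entries (92, all at 0 counts) were left out. Groups were taken from sample titles, and columns with no sample numbered 0.

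R 4.3.3 with edgeR 4.0.16 (TMM, quasi-likelihood test) and DESeq2 1.42.0 were used on genes with at least 10 counts in at least 2 libraries of a fit, with Benjamini-Hochberg adjustment over all genes tested, a threshold of 0.01 and, where stated, a fold change of 2. The states were compared in 4 libraries per passage, the passages in 4 per state and the interaction in 8. The MEF library entered no fit. Level tables used TMM over 9 libraries, so that ratios of means can differ slightly from fitted folds. The code was tested on simulated data. A gene without a count could be present at up to 3 counts, which is 0.128 CPM in MEFs and 0.148 to 0.221 CPM elsewhere, which covers counting error only. The biological coefficient of variation was 3.26% to 4.79% across the fits.

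The members and lists were chosen with earlier results of these data known. Genes named besides the members are a set listed by role and, per list and passage, up to 3 with the largest absolute log2 fold change among those called with a mean of at least 5 CPM. For likeness the minimum mean was 10 CPM, and of 3 members used, the result for *Chac1* is not reported here. Alternatives were scaling by DESeq2's size factors or by library size alone, a fit without the low-count filter, a fit of 8 libraries, DESeq2's Wald test, a replicate block, a feeder share taken off by the median of markers and each library left out. A crossed block and a feeder share by *Col1a1* were chosen after seeing the data.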

Additional observations from a re-analysis of the deposited data

Results flagged for a closer look

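For 6 members the difference between primed and naïve cells was not the same at both passages by the interaction test described above, with Benjamini-Hochberg adjustment over all genes tested. The change in the log2 difference from P5 to P15 was 0.52 for *Atf4*, 1.33 for *Chac1*, 0.77 for *Psat1*, 0.47 for *Phgdh*, 0.36 for *Slc7a5* and −3.22 for *Slc7a11*. For *Slc7a11* it set a difference of 4.89 at P5 against 1.66 at P15, and for the other 5 a larger deficit of primed cells at P5 against a smaller at P15. With a feeder share taken off by the median of markers, the calls of *Slc7a5* and *Chac1* were lost and that of *Slc7a11* has no usable value, as given above. The sums of fibroblast and of pluripotency markers moved with passage in the same libraries, as given above. The part of these markers in these differences was not tested.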

How the results depend on the processing

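With 2 libraries per group from 1 line, the tests refer to these libraries alone. The 10 calls at each passage numbered 9 or 10 under every alternative run, with *Ddit3* the call lost at P5 and *Phgdh* at P15. The 6 interaction calls numbered 5 to 7, and with a feeder share taken off by the median they were *Atf4*, *Psat1* and *Phgdh* higher and *Ddit3*, *Asns* and *Slc7a11* lower. The 8 calls in primed cells numbered 6 to 9. The 3 calls in naïve cells became 1 without a low-count filter and 5 with a replicate block, 2 to 4 with each library left out, 3 with a feeder share by the median, and 2 (1 higher and 1 lower) with that by *Col1a1*. Fits after a feeder share of members left at 3 counts or fewer rest on the offset for 0 counts. Library size alone moved the median of all genes from 0.0078 to 0.21 at P5 and the share of higher among calls from 50.1% to 65.8%, and at P15 from −0.0039 to 0.10 and from 49.9% to 58.8%.

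Directions turned in 16 of the values recomputed, none of them a difference between the states at P5 or P15. The interaction of *Slc7a5* was −0.0115 with a feeder share by the median. That of *Slc3a2* was −0.0772 with library size alone, −0.1196 with a feeder share by the median, −0.0469 by *Col1a1* and −0.0319 to 0.0603 with each library left out. Between passages of naïve cells, *Asns* was 0.007 and 0.0307 and *Phgdh* −0.0041 and −0.0367 with a feeder share by the median and by *Col1a1*, and *Phgdh* −0.0133 with library size alone. With each library left out these naïve differences ranged from −0.1417 to 0.0478 for *Ddit3*, −0.0405 to 0.0311 for *Asns*, −0.1229 to 0.0071 for *Psat1* and −0.0735 to 0.0897 for *Phgdh*. The cause was not tested.

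The replicate numbers were not shown to pair the libraries. Deviations of same-numbered libraries from their group means correlated at −0.127 between states at P5, −0.19 at P15, 0.161 between passages of naïve and 0.159 of primed cells, over 10001 genes. The block left 10 calls at each passage, and so did a block with crossed numbers.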
